A study of Homo sapiens with 2 samples.

Results

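The regions described here are the strongest PRDM1 peaks of libraries labelled as the human myeloma line U266, those that held 100 or more PRDM1 tags in the authors' complete peak list. They were chosen by their tag count alone, and 230 of the 9669 listed peaks met the limit. They are set beside the 667 peaks of 50 to 99 tags, the next band down. A tag is an aligned sequencing read, and the count of a peak is the number of PRDM1 tags that fell inside it. The members together held 35174 tags over 0.482 Mb, which was 0.448% of the PRDM1 tags kept after duplicate removal (95% Wilson interval 0.443% to 0.453%). The interval does not allow for the choice of the members by these same counts.

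Binding was mapped by chromatin immunoprecipitation and sequencing (ChIP-seq) with a rabbit monoclonal antibody against PRDM1, clone C14A4. The only other library was input DNA of U266, which is chromatin carried through sequencing without immunoprecipitation. Both libraries are labelled U266, although NCI-H929, another myeloma line, is named in their culture notes and the design text speaks of more than 1 line. There was 1 library of each kind in the sample list and no added treatment was named in the labels. Intervals and p-values therefore describe counting error or the peaks of this 1 list, and not the spread between cultures.

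PRDM1, also known as BLIMP-1, is a zinc finger protein that binds DNA and mostly represses transcription. It is best known for driving B cells to become antibody-secreting plasma cells, by shutting down the B-cell programme. U266 derives from multiple myeloma, a tumour of plasma cells, which is a cell type that makes PRDM1. In ChIP-seq, a site bound by such a protein appears as a pile of tags that is highest over the bound bases, and the peak caller marks that highest base as the summit.

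The PRDM1 library held 7954355 tags, of which 7854466 were kept, and the input held 8638074, of which 8556458 were kept. Averaged over the effective genome, each kb received 2.91 tags of the PRDM1 library and 3.17 of the input. Coordinates are given as GRCh37, because no peak ran past a GRCh37 chromosome end while 53 passed an end of GRCh38 and 88 an end of NCBI36. The gene tables at hand were made on GRCh38, so nearest genes, exon or promoter annotation and sequence at the summits were not analysed here.

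The members held a median of 134 tags, with quartiles of 112 and 170 and a range of 100 to 474. Of the 230 members, 146 held 100 to 149 tags, 47 held 150 to 199 and 37 held 200 or more. The threshold cut through a continuous run of peaks. Exactly 100 tags were counted in 7 peaks, just inside it, and exactly 99 in 8 peaks, just outside. The first 5 members at 100 tags in list order were 1379 to 2928 bp wide with folds of 27.56 to 49.06. The first 5 peaks at 99 tags were 1362 to 2045 bp wide with folds of 25 to 70. Both ranges overlapped, but 5 peaks on each side are too few to show whether there is a step. In list order the widths were 1906, 1924, 1379, 2526 and 2928 bp inside and 1401, 2045, 1468, 1369 and 1362 bp outside.

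Because the tag count chose the members, the tags, width, score, fold, false discovery rate (FDR) and shape below are a description with no test. The fold is the caller's enrichment at the summit, its height over the local background. The authors' FDR was at most 5% in 228 of the 230 members (99.1%) and in 659 of the 667 peaks of 50 to 99 tags (98.8%), against 43.5% of all listed peaks. It was exactly 0 in 221 members, which is 96.1%, against 10.7% of all listed peaks and 83.7% of the peaks of 50 to 99 tags. The authors' filtered list of 887 peaks was made up of these 228 members and 659 comparison peaks. Both missing members lay on chromosome 4, at chr4:49093131-49095377 with an FDR of 16.83% and at chr4:49108609-49111002 with an FDR of 33.53%.

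The members were broad regions. Their median width was 1919.5 bp, with quartiles of 1548.5 and 2479.75 bp, against 1430 bp in the peaks of 50 to 99 tags. The median tag count was 2.09 times that of the comparison peaks, while the median width was 1.34 times as large. The tag density followed from both, with a median of 72.9 tags per kb in the members and 44.9 in the comparison peaks. A width of 3000 bp or more was found in 29 members (12.6%) and in 3 of the 667 comparison peaks (0.45%). Width rose with tag count among the members only loosely, with a Spearman rho of 0.31 over 230 peaks, and 0.34 in the 667 comparison peaks. Both measures came from the same library, and a wider peak has more room for tags. Median width was 1805 bp at 100 to 149 tags, 1924 bp at 150 to 199 and 2395 bp at 200 or more.

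**Figure D1:**
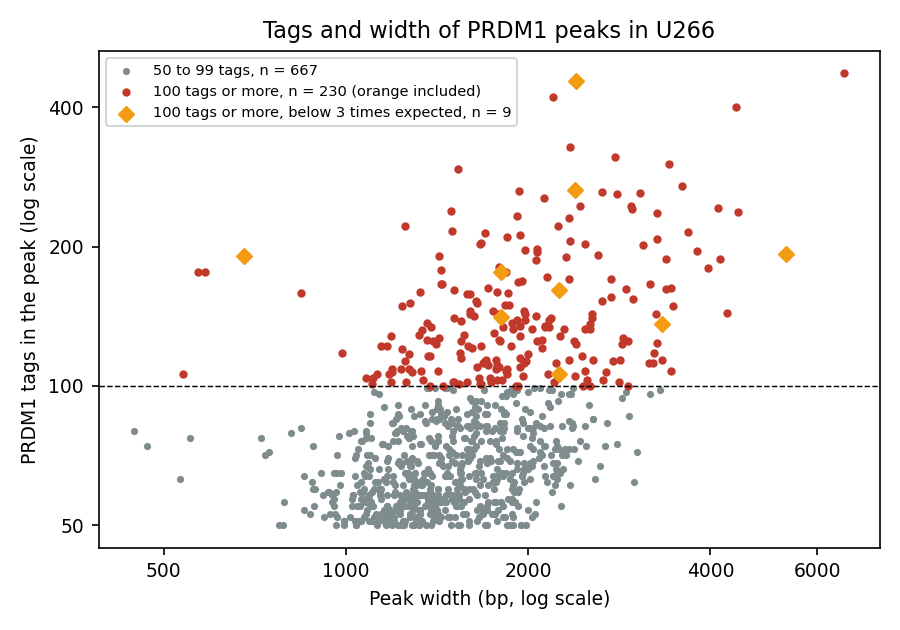
Tags in each peak against its width in bp, both on log scales, with members in red, peaks of 50 to 99 tags in grey and the 9 members with less than 3 times the expected tags as orange diamonds. The dashed line is the limit of 100 tags, and the members spread from 539 to 6653 bp.

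The 10 members with most tags differed widely in width and enrichment. The largest count was 474 tags at chr21:36062338-36068990, which was also the widest member at 6653 bp. Its fold was 45.71, below the members' median of 48.1. The next, chr21:9825309-9827703, held 457 tags in 2395 bp with a fold of 6.52. The peak at chr7:138795938-138798133 came after these, with 421 tags in 2196 bp and a fold of 94.09. A count of 400 tags was found at chr7:943171-947578, a peak of 4408 bp with a fold of 46. The counts of 474 and 400 tags were thus spread over long regions, while those of 457 and 421 tags lay in regions near the members' usual width.

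The remaining 6 of these 10 held 265 to 329 tags. The peak at chr15:44068203-44070549 had 329 tags, a fold of 82.5 and the highest deposited score, 3139.51. The 2 members with the caller's fixed score of 3100 cannot be ranked against it by score. The peak at chr14:77427361-77430138 had 312 tags and a fold of 71.25. At chr9:37408813-37412234 there were 302 tags in 3422 bp and a fold of 196.88, the highest of all 9669 peaks. This was the only member among the first 10 by tags, by fold and by score. At chr9:116343402-116344930 there were 295 tags in only 1529 bp, with a fold of 72.92. The peak at chr19:40046984-40050577 had 270 tags in 3594 bp and a fold of 70.51. The tenth, chr4:49108609-49111002, had 265 tags and a fold of 3.19, and only the chromosome 4 peak at chr4:49093131-49095377 had a lower fold among the members, 2.86.

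The first 10 by tags and the first 10 by fold shared 1 member, so count and enrichment picked different regions. The first 10 by tags and by score shared 6, those by fold and by score shared 4, and the 3 lists together named 20 members. After the chromosome 9 peak, the highest fold was 170.4 at chr10:126752964-126754458, with 216 tags in 1495 bp. The fold was 168.18 at chr1:111746131-111747798, with 203 tags in 1668 bp. It was 160 at chr22:42475426-42476678, with 222 tags in 1253 bp. Each of these 3 regions held fewer tags than any of the first 10 by count.

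The other 6 of the first 10 by fold had values of 110.61 to 142. At chr18:32439899-32441389 the fold was 142 with 239 tags, and at chr18:61033867-61035938 it was 140.42 with 195 tags. The fold was 120 at chr2:191884478-191885901, with 191 tags in 1424 bp. It was 112.22 at chr9:93969593-93971292, with 214 tags, and 111.43 at chr5:43007252-43009400, with 172 tags. The last, chr16:11391005-11392183, had a fold of 110.61 on only 106 tags in 1179 bp. The score list added chr1:9685600-9687720, with 255 tags, a fold of 91.91 and a score of 2989.47.

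The background behind each peak was recovered from its score, as the number of tags that the input led the caller to expect across the peak. The ratio of scaled tags to expected tags was available for 228 members. The 2 members with a score of exactly 3100, a fixed value of the caller, had none. The median member held 13.6 times the expected tags, against 9.65 times in the peaks of 50 to 99 tags. At least 10 times the expected tags were held by 159 of 228 members (69.7%) and by 311 of 667 comparison peaks (46.6%). At least 20 times was reached by 44 members (19.3%) and 22 comparison peaks (3.30%), and at least 30 times by 11 members and 2 comparison peaks. The highest ratio was 49.7 (95% Poisson interval on the tags 43.3 to 56.7) at chr10:126752964-126754458. Next was 48.3 (42.1 to 55.0) at chr22:42475426-42476678, whose interval overlapped that of the first. The widest member, chr21:36062338-36068990, had a ratio of 5.54 (5.06 to 6.07), although it had the most tags.

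The expected background had a median of 6.0 tags per kb in the members and 5.0 in the comparison peaks. Fold fell as background rose, with a rho of -0.68 over 228 members and -0.75 over the 667 comparison peaks. The fold is computed from that background, so the relation is partly built in. The highest fold, at chr9:37408813-37412234, had no recovered background. At chr10:126752964-126754458 the background was 3.17 tags per kb, equal to the input mean over the genome. The same 3.17 was recovered at chr18:61033867-61035938, also of the first 10 by fold, and at other members. Some others of the first 10 by fold had more, such as 5.0 tags per kb at chr18:32439899-32441389 and at chr2:191884478-191885901.

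At the other end, 9 members (3.95% of 228) held less than 3 times the expected tags, a share close to the 21 of 667 comparison peaks (3.15%). These and the other members singled out for shape below were picked after their values were seen. Their background was 21 to 125 tags per kb and their folds were 2.86 to 10.48. The second largest count of all, 457 tags at chr21:9825309-9827703, was one of them, with a background of 125 tags per kb and a ratio of 1.66 (1.51 to 1.82). At chr4:49108609-49111002 the ratio was 1.33 (1.17 to 1.49), and at chr4:49093131-49095377 it was 1.49 (1.27 to 1.73). The background was 91.0 and 52.5 tags per kb there.

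Of the remaining 6, chr21:10793697-10799034 had 193 tags at a ratio of 1.77, in the second widest member at 5338 bp. The ratio was 1.94 at chr2:133011551-133013352, 2.12 at chr1:145289475-145292796 and 2.26 at chr2:20363979-20366223. It was 2.31 at chr16:33962510-33964310 and 2.48 at chr1:91852634-91853313. A member with at least 100 tags and less than 3 times the expected tags must have a high expected count. The high input and small enrichment in these 9 regions thus follow from how they were picked. Together they held 1826 tags over 0.0222 Mb. The part of high input in these calls was not tested.

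**Figure D2:**
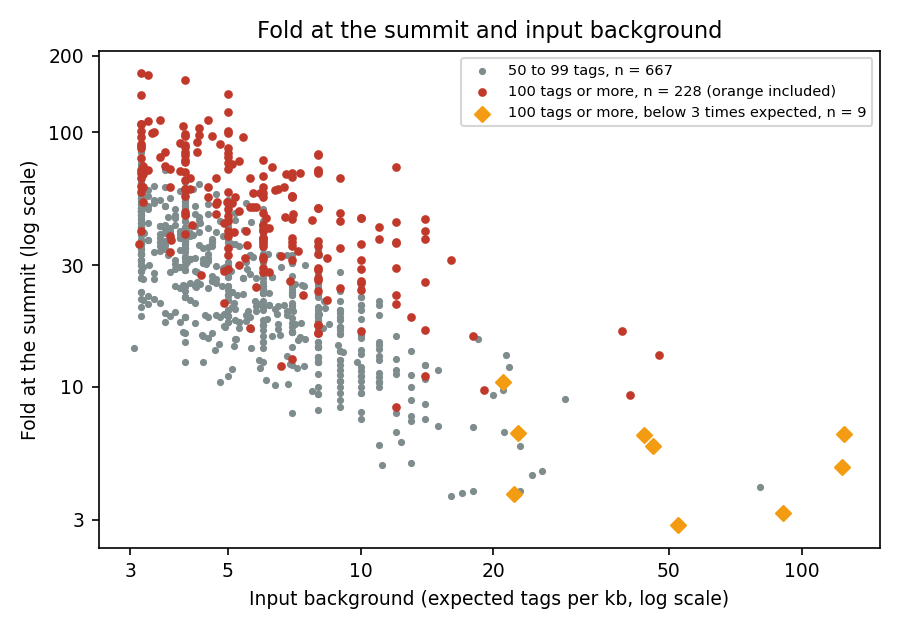
Fold at the summit against the input background in expected tags per kb, both on log scales, for 228 members in red, 667 peaks of 50 to 99 tags in grey and the 9 members with less than 3 times the expected tags as orange diamonds. Folds above 100 lie at low background, and all 12 members with a background of 20 tags per kb or more have folds of 16.56 or less.

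Summit height is the number of tags covering the summit base, each counted over the fragment size of 200 bp rather than its 51 bp. It was obtained from the fold and the background for 223 members. It had a median of 56 and a range of 16 to 175, against a median of 28 and a range of 10 to 60 in 661 comparison peaks. The height reached 175 tags at chr9:116343402-116344930, where 59.3% of the 295 tags covered the summit. It was 163 at chr21:9825309-9827703 and 142 at chr18:32439899-32441389. Median height rose from 49 tags at 100 to 149 tags to 77 at 150 to 199, and was higher again at 200 or more. Height and tag count had a rho of 0.59 over the 223 members and 0.41 over the 661 comparison peaks. The height is part of the count, so they are not separate measurements.

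The shape of the pile had similar medians in the strongest peaks and the next band. The summit was covered by a median of 42.1% of a member's tags and by 43.5% of a comparison peak's tags. At least 50% of the tags covered the summit in 65 of 223 members (29.1%) and in 222 of 661 comparison peaks (33.6%). At most 25% did so in 20 members (8.97%) and 57 comparison peaks (8.62%). Compactness followed width in both bands, with a rho of -0.80 between width and summit share in each. Width and summit share both describe the spread of the same tags, so the relation is partly built in. The 65 compact members were 539 to 2485 bp wide with a median fold of 65.93, and the 20 spread members were 2247 to 5338 bp wide with a median fold of 19.465. Their median tag counts were nearly equal, at 132 and 137. Fold is summit height over background, and these classes were set by summit height over tags. The difference in fold is therefore partly built in.

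**Figure D3:**
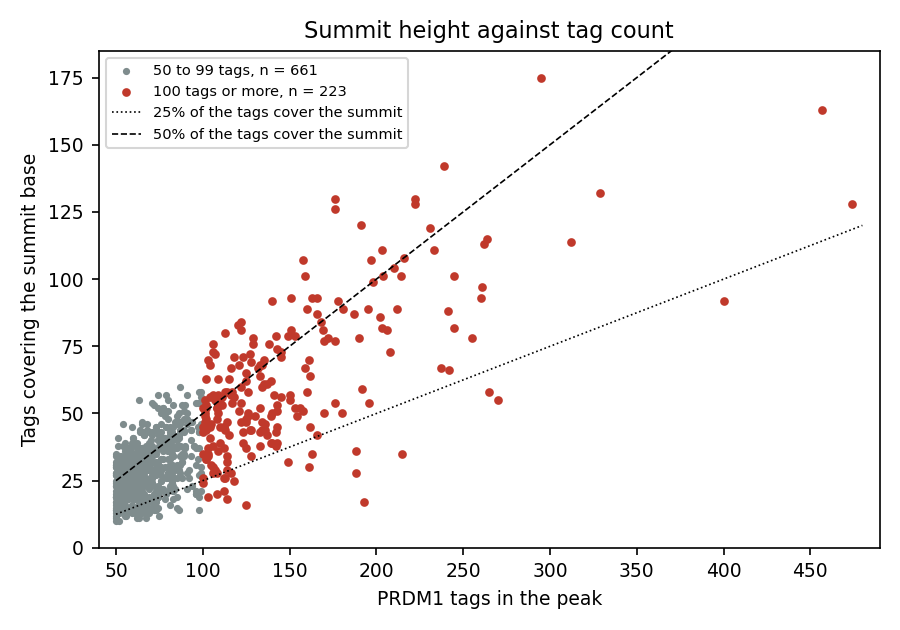
Tags covering the summit base against all tags of the peak, for 223 members in red and 661 peaks of 50 to 99 tags in grey, on linear axes. The dashed and dotted lines mark 50% and 25% of the tags at the summit, and most points of both bands lie between them.

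Among the compact members, the summit held 73.9% of the tags at chr11:85194861-85195446, the largest share, with 176 tags in 586 bp. It held 71.7% at chr5:71146572-71147110, the narrowest member at 539 bp with 106 tags. It held 71.6% at chr17:33477959-33478527, with 176 tags in 569 bp. These 3 were the narrowest members. Their background was also high, at 39.2, 40.8 and 47.5 tags per kb, and their folds were low, at 16.56, 9.31 and 13.28. The only other member under 800 bp, chr1:91852634-91853313, had 680 bp and a background of 124 tags per kb.

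The compact members as a group had a median background of 5.90 tags per kb, close to the 6.10 of the spread members. Compact members were found at low and higher background. The summit held 68.9% of the tags at chr16:11391005-11392183, with a background of 3.30 tags per kb, and 62.8% at chr2:191884478-191885901, with 5.0. The share was 59.4% at chr18:32439899-32441389 and 57.7% at chr22:42475426-42476678. These 4 were among the first 10 by fold and were 1179 to 1491 bp wide. At chr8:126103788-126105373 the summit held 67.7% of the tags, with a background of 14 tags per kb and a fold of 38.21.

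Spread members had long, low profiles. At chr15:42176469-42179390 the summit held 16 of 125 tags (12.8%), and at chr11:71709236-71713385 it held 28 of 188 (14.9%) in 4150 bp. The smallest share, 8.81%, was at chr21:10793697-10799034, where 17 of 193 tags covered the summit. The member at chr4:8537028-8541463 was the widest but 2 at 4436 bp and had 238 tags and a fold of 106.25. Its implied summit height was not whole, so it had no summit share. The relation of width to fold was not tested. At chr19:40046984-40050577 only 20.4% of the 270 tags covered the summit, but the ratio to the expected tags was 20.98 (18.6 to 23.6).

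The summit lay close to the middle of most members. It fell in the central 50% of the peak in 216 of 230 members (93.9%, Wilson interval 90.04% to 96.3%) and in 630 of 667 comparison peaks (94.5%). It fell in the central 30% in 77.8% of members and 74.5% of comparison peaks. The median distance from the centre was 163.75 bp in members and 126 bp in comparison peaks, which was 17.8% of the distance from centre to edge in both. The greater distance in bp thus went with the greater width. The summit was on the side of higher coordinates in 109 of 230 members (47.4%, 41.0% to 53.8%), an interval that includes an even split.

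The shorter flank, from the summit to the nearer edge, had a median of 761.5 bp in members and 570 bp in comparison peaks. The longer flank had medians of 1130.5 and 860 bp. Both flanks were therefore longer in the members by a similar factor, 1.34 and 1.31.

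**Figure D4:**
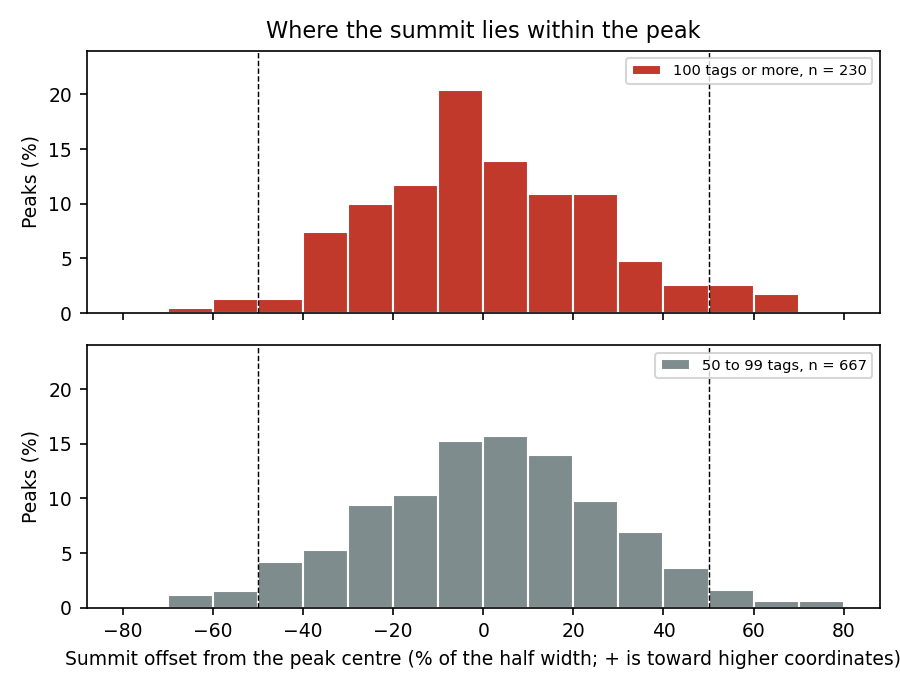
Share of peaks by the offset of the summit from the peak centre, in % of the distance from centre to edge with positive values toward higher coordinates, for 230 members above and 667 peaks of 50 to 99 tags below. Dashed lines bound the central 50% of the peak, and both distributions are centred near 0.

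The summit was outside the central 50% in 14 members, toward higher coordinates in 10 and toward lower in 4. Of these 14, 5 were among the 9 members with less than 3 times the expected tags. The greatest offset was 69.9% of the distance from centre to edge at chr6:31807957-31810486, where the summit lay 380 bp from one edge and 2149 bp from the other. At chr1:172713775-172716111 the flanks were 410 and 1926 bp, with 231 tags and a fold of 66.11. The peak with the highest fold, chr9:37408813-37412234, was also lopsided, with flanks of 759 and 2662 bp. At chr8:126103788-126105373 the flanks were 318 and 1267 bp, and 67.7% of the 158 tags still covered the summit.

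The members were scattered over 23 chromosomes. Chromosome 1 carried 28, chromosome 2 carried 23, chromosome 17 carried 17, chromosome 7 carried 16 and chromosome 9 carried 14, together 42.6% of the members. Chromosomes 13 and X carried 1 each and Y none. A count of 0 in 230 allows a share of up to 1.30% when 3 counts are taken as the limit, and the Wilson interval reaches 1.64%. Chromosome was not used to choose the members, so each chromosome's share was compared with that in the peaks of 50 to 99 tags by Fisher's exact test, two-sided. After Benjamini-Hochberg adjustment 0 of 24 chromosomes differed, and 0 passed an unadjusted 0.05. The smallest unadjusted p, 0.232, was for chromosome 22, with 6 members (2.61%) and 9 comparison peaks (1.35%). Chromosome 17 had 7.39% of the members (4.67% to 11.5%) and 5.55% of the comparison peaks.

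**Figure D5:**
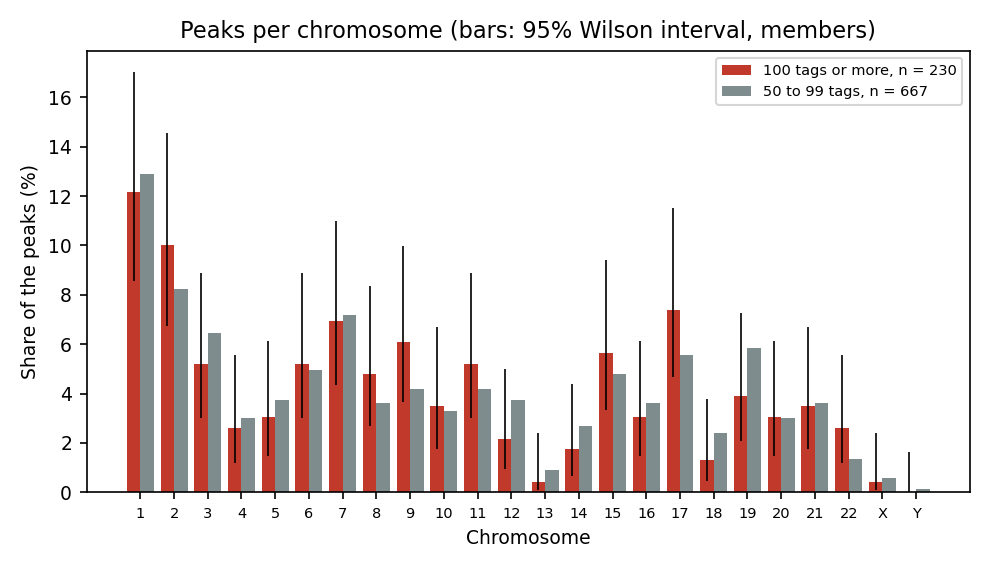
Share of peaks on each chromosome in %, for 230 members in red with 95% Wilson intervals and 667 peaks of 50 to 99 tags in grey, from 0 on a linear axis. The grey bars lie within the interval of the members on every chromosome.

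A neighbouring peak of any strength lay within 10 kb, edge to edge, of 67 of 230 members (29.1%, 23.6% to 35.3%). The same held for 143 of 667 peaks of 50 to 99 tags (21.4%, 18.5% to 24.7%). The difference was 7.69 percentage points, with p = 0.0191 in Fisher's exact test, two-sided, over peaks. Adjusted together with the 24 chromosome tests, the p was 0.477, so the difference did not pass. It was smaller within 2 kb, at 2.65 points with p = 0.297 in the same exact test. Within 50 kb it was 9.91 points with p = 0.0106 in the exact test. By kind of neighbour, chosen after seeing the data, it was 1.5 points with p = 0.282 in the exact test for neighbours of at least 50 tags. For neighbours with an FDR of at most 5%, also chosen after seeing the data, it was 10.8 points with p = 5.26e-05 in the exact test, not adjusted. The members were wider than the comparison peaks, and between summits the difference was 6.88 points with p = 0.0320 in the exact test.

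Of the 67 members with such a neighbour, the nearest peak held fewer than 50 tags in 57 cases, 50 to 99 in 6 and 100 or more in 4, with a median of 21 tags. Weak neighbours were also usual around the comparison peaks, where the nearest held fewer than 50 tags in 128 of 143 cases, with a median of 16 tags. The nearest peak lay within 1 kb for 25 of the 230 members and for 60 of the 667 comparison peaks. The gap was only 4 bp at chr16:11391005-11392183, whose neighbour held 10 tags. It was 11 bp at chr7:140355453-140358190, next to a peak of 54 tags, and 12 bp at chr2:23601844-23604811, next to a peak of 22 tags. Whether the caller split 1 enriched stretch into such pairs was not tested. Over all 230 members the median gap to the nearest peak was 26688 bp, against 44992 bp in the comparison peaks.

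Some members lay close to another member. There were 12 pairs of successive members within 100 kb, formed by 23 members. The closest pair lay 3466 bp apart, at chr17:56415594-56417530 with 212 tags and chr17:56420997-56422915 with 233. On chromosome 14, chr14:77417776-77421008 with 118 tags was 6352 bp from the peak of 312 tags at chr14:77427361-77430138. The member with the highest deposited score, chr15:44068203-44070549, lay 24985 bp from chr15:44040870-44043217, which held 206 tags. The member with most tags, chr21:36062338-36068990, lay 39630 bp from chr21:36019242-36022707, which held 149.

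Another of these pairs, on chromosome 4, joined both members outside the filtered list, 13231 bp apart. A run of 3 members lay on chromosome 16, at chr16:11318311-11320489 with 140 tags, chr16:11391005-11392183 with 106 and chr16:11448062-11449798 with 102. Their folds were 55.56, 110.61 and 16.5, so neighbouring members did not have like enrichment there. In fixed windows of 1 Mb, 31 held at least 2 members and 4 held 3, on chromosomes 1, 16 and, at 2 places, 17. The window from 56000001 to 57000000 on chromosome 17 held 3 members with 565 tags in all, and 4 peaks of 50 to 99 tags.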

How the data were processed

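The sample list held 1 PRDM1 and 1 input library, both labelled U266. The submitters' processing notes name Bowtie 0.12.7, CASAVA 1.8.2 and MACS 1.4 as the tools used. Peaks were called by MACS 1.4.1 on merged alignment files at a p cutoff of 1e-05, with a fragment size of 200 bp, tags of 51 bp and input windows of 1000 and 10000 bp, per the file headers. What those alignment files merged was not examined here. Per the file headers, tags per peak are raw counts. The fold is the authors' deposited ratio of summit height to background. The deposited score is −10 times log10 of the Poisson p. The FDR is a percent deposited by the authors. The genome build, not given in the sources used here, was taken from chromosome ends typed by hand from general knowledge.

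Expected tags were solved from the score, using the tags multiplied by the ratio of input to PRDM1 tags, 1.09, and rounded down. This form was chosen earlier because it made the implied summit heights whole. Within 0.06 tags, 98.7% of 9667 heights were whole, where spacing alone gives 12%. Heights that were not whole were left out of the summit shares. Poisson intervals on ratios treat the background as known and do not allow for the choice of members by tag count. All intervals are 95% and cover counting error only. The solving was tested on scores simulated with the same formula, which does not test the formula itself. The chromosome tests were tested on simulated counts, and the neighbour gap only on a small made-up list. Gaps were taken between peak edges, and summits were counted from the peak start. Python 3.11.15, pandas 2.3.3, SciPy 1.17.1 and matplotlib 3.10.9 were used. The test threshold was 0.05, over 25 tests.

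Peaks named one by one were the first 10 by tags, fold and score, the 3 widest and 3 narrowest, and the 5 on each side of the limit. Others were chosen after their values were seen. The members and these rules were chosen with earlier results of these data known. Gene starts, gene lists, motifs and CpG content needed a GRCh37 reference and were not analysed here.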

Additional observations from a re-analysis of the deposited data

How the results depend on the processing

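At a minimum of 120 tags, 151 peaks would be members, and at 90 tags 275. The share with a central summit was 77.8% when the central 30% of the peak was taken. The neighbour difference was 2.65 points (exact p = 0.297) within 2 kb and 9.91 points (p = 0.0106) within 50 kb. With alternatives chosen after seeing the data, it was 1.5 points (exact p = 0.282) for neighbours of at least 50 tags, 10.8 points (p = 5.26e-05) for neighbours with an FDR of at most 5%, 7.88 points (p = 0.0223) without peaks below 3 times the expected tags and 6.88 points (p = 0.0320) between summits. These p-values are unadjusted Fisher's exact tests, and the causes of the changes were not tested. Median width was 1906 bp with only members of FDR 0, and also without those below 3 times the expected tags. Against all other peaks of the list, again 0 of 24 chromosomes differed after adjustment, the smallest being chromosome 17 at 7.39% against 3.55% (p = 0.00614, adjusted 0.147, Fisher's exact test). No paired analysis was possible because each kind had 1 library. The alternatives on gene starts, motifs and CpG content were not run. At an input mean of 3.17 tags per kb, a background counted around a single peak rests on few input tags. Backgrounds equal to that mean repeat the genome value and are not read here as local counts.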

Other observations

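The position of members relative to chromosome ends was looked at after other values had been seen, and was not tested. The summit lay within 5 Mb of a GRCh37 chromosome end in 16 of 230 members (6.96%, Wilson interval 4.33% to 11%). The same was found for 80 of 667 peaks of 50 to 99 tags (11.99%, 9.74% to 14.7%) and for 9.34% of all listed peaks. Within 10 Mb the shares were 15.7% of members, 20.5% of the peaks of 50 to 99 tags and 17.96% of all listed peaks. The intervals of members and comparison peaks overlapped at both distances, which does not show that the shares are equal.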
